A study of Rattus norvegicus with 10 samples.

Results

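The genes described here are 10 transcription factors of the heart, *Nkx2-5*, *Gata4*, *Gata6*, *Tbx5*, *Tbx20*, *Hand1*, *Hand2*, *Mef2a*, *Mef2c* and *Srf*, which were chosen by symbol from the 18025 genes of the expression table, where all 10 were found. Their mRNA was measured in hearts of wild-type (wt) Sprague-Dawley rat fetuses at embryonic day 19.5, with 5 libraries of the control group (CON) and 5 of the hyperglycemia group (HG). Dams of the HG group were given streptozotocin, which destroys the beta cells of the pancreas, once a day for 3 days, and counted as diabetic above a non-fasting blood glucose of 16 mM. Dams of the CON group received the citric acid buffer alone, and all dams were 3 months old. The sources differ on whether the injections came before or after mating, and they name neither the litter and sex of a fetus nor the number of hearts in a library, so that p-values measure only the spread between these libraries. The values are FPKM, which are sequenced fragments divided by gene length and by library size, so that levels of different genes can be set side by side.

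In the developing heart these factors bind DNA together at enhancers and promoters of heart genes. NKX2-5 carries a homeodomain, GATA4 and GATA6 carry zinc fingers, TBX5 and TBX20 carry a T-box, HAND1 and HAND2 are basic helix-loop-helix proteins, and MEF2A, MEF2C and SRF share a MADS-box. Early in development they set up the heart tube and its chambers, and later they keep genes of the sarcomere, of conduction and of energy supply active. Among the GO terms that the authors attached to the genes, "heart development" was shared by 8 of the 10 and "heart looping" by 7.

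Markers of heart muscle were abundant in all 10 libraries. The sum over 9 cardiomyocyte markers lay between 11732 and 12365 FPKM in CON and between 9203 and 10053 FPKM in HG. Markers of lung epithelium, of which 2 of the 4 listed were in the expression table, summed to at most 0.179 FPKM. Those of skeletal muscle precursors, of which 2 of the 3 listed were in it, summed to at most 0.838 FPKM. The CON3 library stood apart in 6 liver markers, which summed to 80.1 FPKM there, to 3.15 to 8.10 FPKM in the other CON libraries and to 1.33 to 2.60 FPKM in HG. Reads behind the values could be recovered for 18011 genes and came to between 16288007 and 16859012 in a library of the CON group and between 15682305 and 17840959 in one of the HG group.

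The promoters were searched for the short elements that these families bind. RefSeq held a promoter for 8 of the 10 genes, with 250 bases before and 50 bases after the start, in rat build GRCr8, which is not the mRatBN7.2 build of the expression values. Both strands were searched for the GATA box (GATAA or GATAG preceded by A or T), the NKX2-5 element (AAGTG preceded by TC or TT, the former of which also holds an E-box), the T-box element (AGGTGT), the E-box that helix-loop-helix proteins bind (CANNTG), the CArG box of SRF and the MEF2 box. *Srf* held 2 CArG boxes, starting 81 and 61 bases before its start, whereas 1.77% of the 27457 genes with a promoter held any. *Mef2a* held 1 MEF2 box, starting 40 bases before its start, against 3.66% of all genes. GATA boxes lay in *Tbx5* and *Hand2* (31.8% of all genes), a T-box element in *Gata6* (14.6%) and an NKX2-5 element in 0 of the 8 (5.82% of all genes). The E-box was in 3 of the 8 promoters and in 73.2% of all genes. Of the 11733 tested genes with a promoter a smaller share held each element. These shares were 1.39% for the CArG box, 1.87% for the MEF2 box and 21% for the GATA box. They were 12% for the T-box element, 4.2% for the NKX2-5 element and 64.9% for the E-box. *Hand1*, whose level changed most between the groups, held none of the 6 elements in this window. Below stand the 250 bases before the start of *Srf*, *Mef2a* and *Hand1*. *Srf* and *Mef2a* are shown because each holds an element of its own protein family that few genes hold, with these elements in capitals. *Hand2* also holds the element of its family, the E-box, which most genes hold, and is not shown. The bases before the start of *Nppa*, a target of GATA4, NKX2-5 and TBX5 described further on, are shown with its GATA box in capitals. A match describes these letters only and is not a measured binding site.
Srf (GRCr8, chr9:21923826-21924075, strand +): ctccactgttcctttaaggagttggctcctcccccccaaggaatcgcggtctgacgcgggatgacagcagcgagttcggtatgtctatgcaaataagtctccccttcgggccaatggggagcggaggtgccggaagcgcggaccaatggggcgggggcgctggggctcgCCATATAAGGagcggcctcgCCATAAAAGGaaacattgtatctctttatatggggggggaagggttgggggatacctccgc
Mef2a (GRCr8, chr1:130392163-130392412, strand -): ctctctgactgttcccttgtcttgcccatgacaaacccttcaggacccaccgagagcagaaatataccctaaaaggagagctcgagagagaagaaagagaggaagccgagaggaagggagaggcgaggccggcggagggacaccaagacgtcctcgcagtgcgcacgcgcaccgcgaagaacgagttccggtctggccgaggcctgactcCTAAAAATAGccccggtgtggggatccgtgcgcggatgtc
Hand1 (GRCr8, chr10:42509685-42509934, strand -): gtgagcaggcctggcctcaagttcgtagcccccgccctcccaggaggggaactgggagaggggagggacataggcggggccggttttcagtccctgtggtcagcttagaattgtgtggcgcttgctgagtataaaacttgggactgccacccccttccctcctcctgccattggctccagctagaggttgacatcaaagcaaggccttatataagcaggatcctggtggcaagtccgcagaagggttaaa
Nppa (GRCr8, chr5:163711934-163712183, strand +): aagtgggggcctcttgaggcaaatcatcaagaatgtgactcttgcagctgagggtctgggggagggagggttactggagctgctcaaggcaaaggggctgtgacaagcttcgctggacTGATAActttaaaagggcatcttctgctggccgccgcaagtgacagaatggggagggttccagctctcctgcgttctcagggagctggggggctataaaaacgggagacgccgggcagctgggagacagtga

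The 10 factors split into 3 that rose in HG (*Hand1*, *Gata4* and *Tbx5*), 1 that fell (*Gata6*) and 6 that did not pass the test (*Nkx2-5*, *Tbx20*, *Hand2*, *Mef2a*, *Mef2c* and *Srf*). Groups were compared with limma on log2(FPKM + 0.1), and a gene was called at a Benjamini-Hochberg adjusted p under 0.05 over the 14542 genes whose mean reached 0.1 FPKM, among which all 10 factors were. The share called, 4 of 10 (40%), was close to the 40.1% of all genes tested and to the 37.5% of the 826 tested genes with a transcription factor family annotation. Of all genes tested, 28.4% were higher and 11.8% lower in HG. None of the 10 passed the study's threshold for differential expression, an adjusted p under 0.05 with an absolute log2 fold change above 1, which 1.94% of all genes passed. The study applied this threshold to DESeq results, whereas here it was applied to the limma values. In 3 of the 10 the libraries of the groups did not overlap, 2 of them higher and 1 lower in HG, against 27.4% of all genes (19.3% higher and 8.12% lower). The scaling of the libraries bears on these counts, since the median log2 fold change of all genes was 0.09 with FPKM as deposited and 0.01 when median-of-ratios factors rescaled the libraries. With such factors 2 of the 10 were higher and 2 lower, beside 15.7% and 17.5% of all genes, and after quantile normalization 2 were higher and 1 lower, beside 18% and 15.9%.

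**Figure D1:**
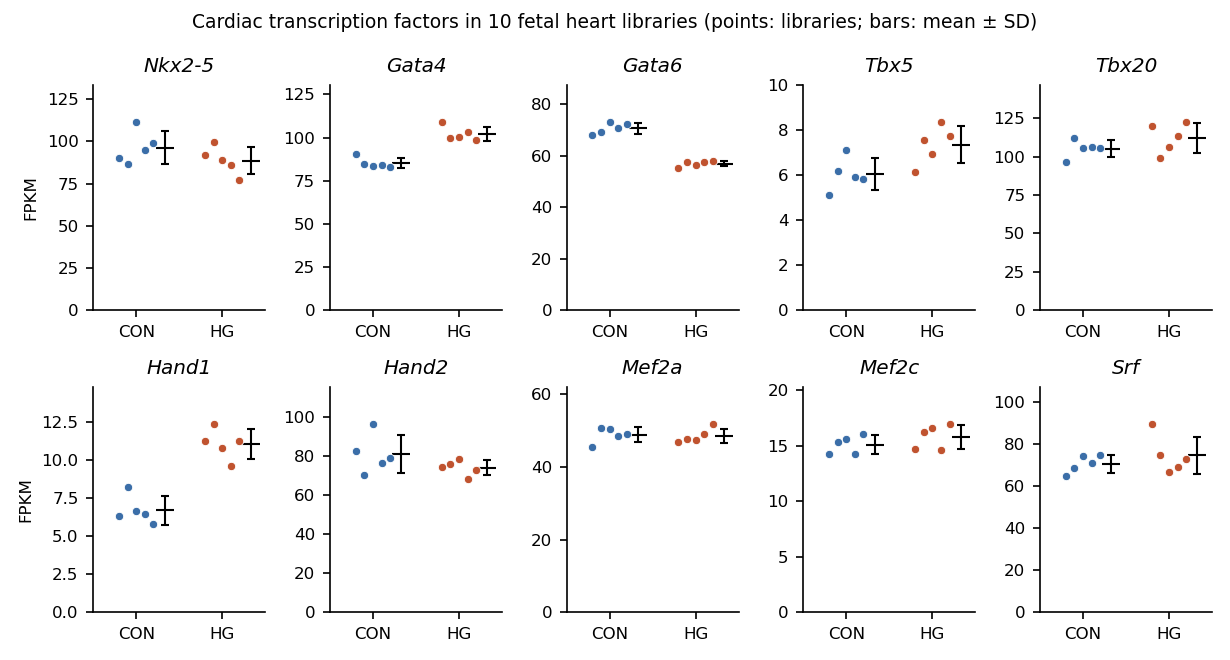
FPKM of the 10 transcription factors (y axis, from 0, a scale of its own for each gene) in the CON and HG libraries (points), with mean ± SD (bars, n = 5 libraries per group). The points of *Hand1* and *Gata4* lie higher in all HG than in all CON libraries and those of *Gata6* lower, while the other 7 overlap.

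The GATA factors moved in opposite directions. GATA4 is needed for the folding of the heart tube and for the growth of cardiomyocytes, and GATA6 shares many of its targets and also acts in the outflow tract and in vascular smooth muscle. *Gata4* measured 90.5, 84.7, 83.7, 83.9 and 83.1 FPKM in CON1 to CON5 and 109.0, 99.9, 100.1, 103.2 and 98.5 FPKM in HG1 to HG5. All HG libraries lay above all CON libraries, and the highest library of each group was the one numbered 1. The mean rose from 85.2 ± 3.02 to 102.2 ± 4.19 FPKM (SD, n = 5 each), a log2 fold change of 0.26 with a standard error of 0.0376 (limma, adjusted p = 0.000214). *Gata6* measured 68.0, 69.4, 73.1, 70.6 and 72.4 FPKM in CON1 to CON5 and 55.3, 57.7, 56.5, 57.6 and 57.8 FPKM in HG1 to HG5. It was lower in all HG libraries than in any CON library and was the least variable of the 10, with a coefficient of variation of 2.98% in CON and 1.89% in HG. Its mean fell from 70.7 ± 2.11 to 57.0 ± 1.08 FPKM, a log2 fold change of -0.31 with a standard error of 0.0319 (limma, adjusted p = 2.17e-05). Both calls held under all 21 alternative settings, with adjusted p up to 0.00875 for *Gata4* and 0.000673 for *Gata6*. In RefSeq *Gata4* overlaps a long non-coding RNA gene, LOC102548615, and whether reads were counted by strand is not given in the sources used here, so that their reads cannot be told apart.

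*Hand1* changed most of the 10. In the mouse heart HAND1 marks the left ventricle and HAND2 the right ventricle and outflow tract, and HAND2 also acts in the epicardium and endocardium. *Hand1* measured 6.33, 8.27, 6.65, 6.50 and 5.79 FPKM in CON1 to CON5 and 11.3, 12.4, 10.8, 9.66 and 11.3 FPKM in HG1 to HG5. The groups did not overlap, and CON2 and HG2 were the highest libraries. From 6.71 ± 0.933 FPKM in CON the mean rose to 11.1 ± 0.980 FPKM in HG, 1.65 times as high (log2 fold change 0.72, standard error 0.0909, limma, adjusted p = 8.93e-05). This fold change was above that of 97.1% of all genes tested, and the call held under all 21 alternatives with log2 fold changes of 0.63 to 0.80. *Hand1* also rested on the fewest reads of the 10, 110 to 162 in a CON library and 183 to 244 in an HG library. Counting alone gives a coefficient of variation of 8.78% at the CON depth, against the 13.9% seen between CON libraries. Such counting error takes reads as independent, which amplified reads without molecular identifiers are not.

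For *Hand2* no difference passed the test. It measured 82.8, 70.4, 96.2, 76.7 and 79.2 FPKM in CON1 to CON5 and 74.5, 76.0, 78.3, 68.1 and 73.1 FPKM in HG1 to HG5. The groups overlapped, with HG4 below every CON library and CON3, the library with the high liver marker sum, at the top. Means were 81.1 ± 9.60 FPKM in CON and 74.0 ± 3.80 FPKM in HG, for which the log2 fold change was -0.13 with a 95% confidence interval of -0.28 to 0.03 (limma, adjusted p = 0.178). With median-of-ratios factors the log2 fold change was -0.22 and passed the threshold (limma, adjusted p = 0.0346), and without CON3 it was -0.06 (adjusted p = 0.402).

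Of the T-box factors, only *Tbx5* passed the test, and its call was not stable. TBX5 is active in the atria and the left ventricle and in the conduction system, and TBX20 acts in all chambers and their valves. *Tbx5* measured 5.15, 6.19, 7.11, 5.92 and 5.85 FPKM in CON1 to CON5 and 6.17, 7.58, 6.97, 8.37 and 7.77 FPKM in HG1 to HG5. HG1 and HG3 lay below CON3, so that the groups overlapped. The mean rose from 6.04 ± 0.710 to 7.37 ± 0.837 FPKM, a log2 fold change of 0.28 with a 95% confidence interval of 0.08 to 0.49 (limma, adjusted p = 0.0316). The adjusted p was 0.138 with median-of-ratios factors, 0.145 after quantile normalization, and between 0.0579 and 0.0767 without CON1, CON4, CON5, HG2, HG4 or HG5, each left out in turn. *Tbx20* measured 96.3, 112.2, 106.0, 106.4 and 105.6 FPKM in CON1 to CON5 and 119.9, 99.4, 106.1, 113.5 and 122.6 FPKM in HG1 to HG5. Libraries of both groups were mixed between 99.4 and 112.2 FPKM, with HG1, HG4 and HG5 above all CON libraries. The log2 fold change of *Tbx20* was 0.09 with an interval of -0.04 to 0.22 (limma, adjusted p = 0.250), so that a rise of up to 0.22 on the log2 scale was not excluded.

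*Nkx2-5*, the homeobox gene that marks cardiac progenitors and is kept on in cardiomyocytes, did not pass the test. It measured 90.1, 86.4, 111.4, 94.6 and 98.8 FPKM in CON1 to CON5 and 91.9, 99.4, 88.9, 86.0 and 76.8 FPKM in HG1 to HG5. CON3 was again the highest and HG5 the lowest library. The means were 96.3 ± 9.64 and 88.6 ± 8.24 FPKM, with a log2 fold change of -0.12 and an interval of -0.28 to 0.04 (limma, adjusted p = 0.230). Without CON3 the log2 fold change was -0.07 (adjusted p = 0.489). None of the 21 alternatives called it, with adjusted p from 0.0613 upwards.

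None of the MADS-box factors passed the test. MEF2A and MEF2C switch on muscle and metabolic genes and are held back by class IIa histone deacetylases, while SRF acts on contractile genes together with myocardin and on growth-induced genes together with ELK proteins. *Mef2a* measured 45.6, 50.8, 50.3, 48.4 and 48.9 FPKM in CON1 to CON5 and 46.7, 47.6, 47.3, 49.0 and 51.7 FPKM in HG1 to HG5. *Mef2c* measured 14.3, 15.3, 15.6, 14.2 and 16.0 FPKM in CON1 to CON5 and 14.7, 16.2, 16.6, 14.6 and 16.9 FPKM in HG1 to HG5. In both genes the ranges of the groups nearly coincided. The log2 fold change of *Mef2a* was -0.01 with an interval of -0.10 to 0.08 (limma, adjusted p = 0.867). That of *Mef2c* was 0.07 with an interval of -0.06 to 0.19 (adjusted p = 0.384), and the value turned to -0.02 with median-of-ratios factors and to -0.01 when quantile normalization was used. *Mef2c* overlaps a long non-coding RNA gene, LOC103691412, whose reads cannot be told apart from its own.

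*Srf* measured 64.7, 68.8, 74.7, 71.0 and 74.9 FPKM in CON1 to CON5 and 89.6, 75.2, 66.9, 69.3 and 73.0 FPKM in HG1 to HG5. HG1 and HG2 were above every CON library and the other HG libraries within the CON range. Its means were 70.8 ± 4.28 and 74.8 ± 8.85 FPKM, with a log2 fold change of 0.07 and an interval of -0.08 to 0.23 (limma, adjusted p = 0.450). Without HG1 it was 0.01 (adjusted p = 0.940), and with median-of-ratios factors it was -0.02.

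**Figure D2:**
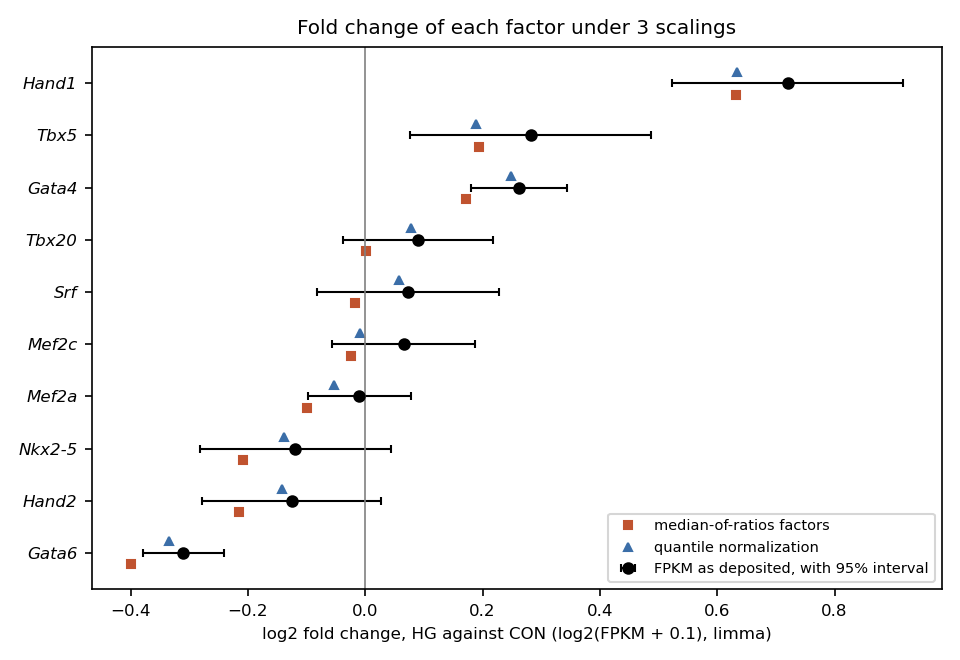
Log2 fold change of each factor, HG against CON (x axis), with FPKM as deposited (circles, with the 95% confidence interval from limma), median-of-ratios factors (squares) and quantile normalization (triangles). *Hand1* and *Gata4* lie right of 0 and *Gata6* left of 0 under all 3 scalings, whereas *Srf* and *Mef2c* lie on either side of 0.

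Ratios of 2 factors within a library do not depend on how libraries are scaled, and 6 of them were compared with 2-sided exact permutation tests. With 5 libraries against 5 such a test cannot give a p below 0.00794. The ratio of *Gata4* to *Gata6* was 1.33, 1.22, 1.14, 1.19 and 1.15 in CON1 to CON5 and 1.97, 1.73, 1.77, 1.79 and 1.70 in HG1 to HG5. All HG values were above all CON values, and the mean ratio went from 1.21 ± 0.0762 to 1.79 ± 0.104 (SD, n = 5 each, log2 difference 0.57, exact permutation p = 0.00794, adjusted over the 6 ratios 0.0159). The groups of both genes did not overlap and lay in opposite directions, so that this p was fixed by the single genes and adds nothing to their calls. The ratio of *Hand1* to *Hand2* was 0.0764, 0.117, 0.0692, 0.0848 and 0.0731 in CON1 to CON5 and 0.151, 0.163, 0.138, 0.142 and 0.154 in HG1 to HG5. It too was higher in 5 of 5 HG libraries, with a log2 difference of 0.85 (exact permutation p = 0.00794, adjusted 0.0159). The ratio of *Mef2c* to *Mef2d*, a further gene of the MEF2 family, was 0.404 to 0.475 in CON and 0.489 to 0.560 in HG, with a log2 difference of 0.21 (exact permutation p = 0.00794, adjusted 0.0159).

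For the other 3 ratios the groups overlapped. *Tbx5* to *Tbx20* was 0.0574 ± 0.00552 in CON and 0.0661 ± 0.00979 in HG (log2 difference 0.19, exact permutation p = 0.127, adjusted 0.190), and without HG1, the lowest of all 10 libraries, the log2 difference was 0.28 with an adjusted p of 0.0476 from the exact permutation test. *Mef2a* to *Mef2c* was 3.24 ± 0.133 in CON and 3.07 ± 0.199 in HG (exact permutation p = 0.175, adjusted 0.210). *Srf* to *Myocd*, which encodes its muscle partner myocardin, was 4.33 ± 0.374 in CON and 4.83 ± 0.872 in HG (exact permutation p = 0.278, adjusted 0.278).

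**Figure D3:**
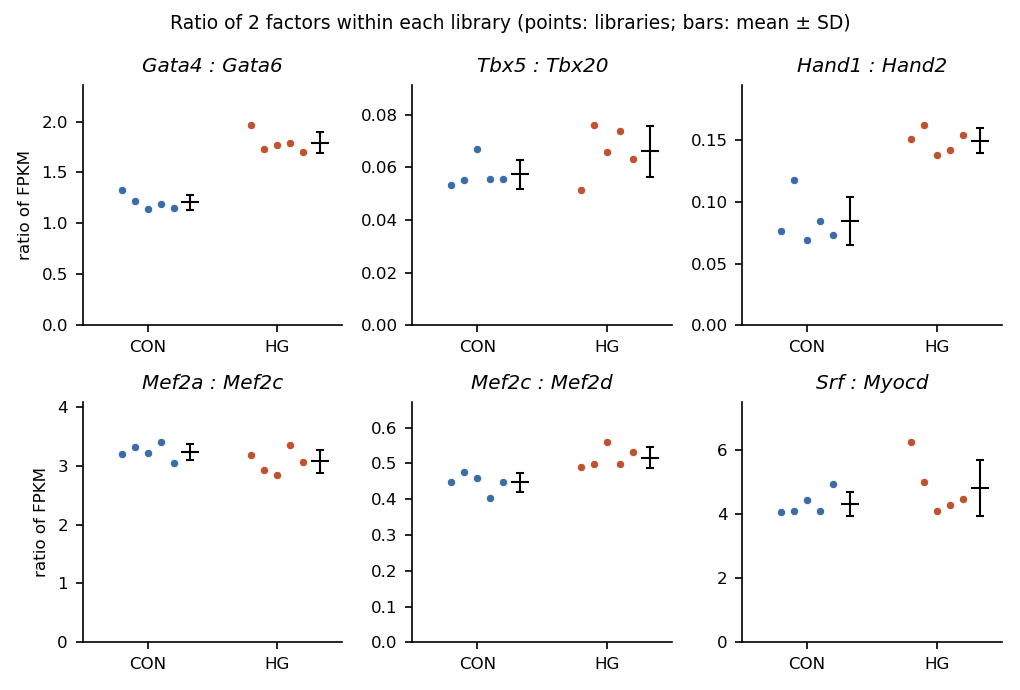
Ratio of the FPKM of 2 factors within each library (y axis, from 0) in CON and HG (points, with mean ± SD as bars, n = 5 libraries per group). The HG points of *Gata4* to *Gata6*, *Hand1* to *Hand2* and *Mef2c* to *Mef2d* lie above all CON points, and the groups overlap in the other 3 panels.

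The factors differed far more in level than between the groups. In CON the order of mean FPKM was *Tbx20* (105.3), *Nkx2-5* (96.3), *Gata4* (85.2), *Hand2* (81.1), *Srf* (70.8), *Gata6* (70.7), *Mef2a* (48.8), *Mef2c* (15.1), *Hand1* (6.71) and *Tbx5* (6.04). From *Tbx20* down to *Gata6* the libraries of each gene overlapped with those of the next, and so did *Hand1* with *Tbx5*, while *Mef2a* and *Mef2c* were apart from the genes next to them. In HG *Gata4* stood above *Nkx2-5* and *Srf* above *Hand2*, although the ranges of these neighbours overlapped. *Gata6* no longer overlapped with the gene above it, and *Hand1* (9.66 to 12.4 FPKM) no longer overlapped with *Tbx5* (6.17 to 8.37 FPKM). Against all genes tested, the mean level of *Tbx20* was above 95.5% of genes and that of *Tbx5* above 48.3%.

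For each called factor the genes with the most similar pattern were sought, by the root mean square difference of log2(FPKM + 0.1) relative to the CON mean over the 10 libraries, among the 11709 genes whose mean reached 1 FPKM. *Otub1* (0.0275) and *Rnf4* (0.0347) were nearest to *Gata4*, and *Fhod3* (0.0378) and *Pacsin2* (0.0383) to *Gata6*. *Fhod3*, which encodes a formin of the sarcomere, went from 67.7 to 54.0 FPKM. *Mex3a* (0.110) and *Cemip2* (0.118) were nearest to *Hand1*, and *Pqbp1* (0.0762) and *Pole3* (0.0850) to *Tbx5*. The distances of *Hand1* and *Tbx5* were larger than those of *Gata4* and *Gata6*. *Hand1* and *Tbx5* also had fewer reads, and *Hand1* had the largest fold change of the factors. What set the distances was not tested.

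Among the wider families, as the authors' annotation defines them, 13 tested zinc finger genes of the GATA type held 4 that were higher and 2 that were lower. Of 10 T-box genes 2 were higher and 2 lower, of 5 genes of the SRF type 0 were higher and 1 lower, of 59 basic helix-loop-helix genes 23 were higher and 3 lower, and of 60 homeobox genes 21 were higher and 3 lower. Over all genes tested these shares were 28.4% higher and 11.8% lower. With median-of-ratios factors they were 15.7% and 17.5%, a scaling under which the families were not counted.

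A list of 30 other heart transcription factors, related to the 10 or known for chambers, conduction or growth, was also examined. Of the 28 tested, 12 were higher, 4 lower and 12 not called, so that 57.1% were called where 40.1% of all genes were, which was not tested as a difference, and their median log2 fold change was 0.24, beside 0.09 over all genes. *Tead2*, which acts with the cofactors of the Hippo pathway, rose from 36.2 ± 1.51 to 52.7 ± 1.33 FPKM (SD, n = 5 each, log2 fold change 0.54, standard error 0.0370, limma, adjusted p = 1.27e-06). *Mycn*, a driver of growth of the fetal myocardium, rose from 12.9 ± 0.876 to 20.6 ± 2.55 FPKM (log2 fold change 0.66, limma, adjusted p = 6.60e-05). *Irx2*, a homeobox gene of the Iroquois family, rose from 8.17 ± 0.973 to 12.9 ± 0.733 FPKM (log2 fold change 0.66, limma, adjusted p = 6.48e-05). No HG library overlapped with CON in these 3 genes. *Tbx2*, a repressor of chamber genes in the atrioventricular canal, fell from 5.68 ± 0.523 to 4.00 ± 0.337 FPKM (log2 fold change -0.49, limma, adjusted p = 0.000405). *Mef2d* (log2 fold change -0.14, limma, adjusted p = 0.0272) and *Gata5* (-0.13, adjusted p = 0.0277) were lower by little, and each missed the threshold under 7 of the 21 alternatives. The fourth gene that was lower, *Tbx1*, which is known from the pharyngeal arches and the second heart field, is named after its values were seen. It rested on 3 to 19 reads in a library (0.434 ± 0.186 and 0.174 ± 0.0939 FPKM, log2 fold change -0.95, limma, adjusted p = 0.0220) and missed the threshold under 4 of the 20 alternatives in which it was tested. The count of lower genes was 1 without HG1 and 2 without CON3, CON4, CON5 or HG3. With median-of-ratios factors 9 of the list were higher and 5 lower, and the median was 0.15.

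Cofactors that bind the 10 factors or change chromatin with them moved in both directions. Of 21, 4 were higher, 3 lower and 14 not called, so that 33.3% were called beside 40.1% of all genes, and the median of the list was 0.02 on the log2 scale. *Hdac2*, a class I histone deacetylase, rose from 68.9 ± 4.20 to 81.8 ± 0.527 FPKM (log2 fold change 0.25, limma, adjusted p = 0.000551). *Smarca4*, the ATPase of the BAF complex (0.18, limma, adjusted p = 0.00235), and *Elk3*, a partner of SRF (0.19, adjusted p = 0.00524), were higher with FPKM as deposited but not with median-of-ratios factors (adjusted p = 0.122 and 0.118). *Fhl2*, a LIM protein that binds SRF and other factors, fell from 159.6 ± 8.50 to 120.9 ± 7.77 FPKM (log2 fold change -0.40, limma, adjusted p = 8.97e-05). *Smyd1*, a histone methyltransferase of muscle that acts upstream of *Hand2*, fell from 83.8 ± 3.68 to 70.9 ± 3.23 FPKM (-0.24, limma, adjusted p = 0.000770). *Hdac5*, a class IIa deacetylase that represses MEF2, fell from 31.5 ± 2.30 to 27.5 ± 1.60 FPKM (-0.19, limma, adjusted p = 0.0174). *Myocd*, with means of 16.4 and 15.6 FPKM, was not called. With median-of-ratios factors 1 cofactor was higher and 5 were lower, and the median was -0.07.

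Known targets of NKX2-5, GATA4, TBX5 or TBX20 differed in direction. Of 14, 2 were higher, 6 lower and 6 not called, beside 28.4% higher and 11.8% lower over all genes, and the median was a log2 fold change of -0.07. With median-of-ratios factors 1 was higher and 8 were lower, with a median of -0.16. *Nppa*, the gene of atrial natriuretic peptide whose promoter stands above, measured 1626, 1667, 2142, 1436 and 1791 FPKM in CON1 to CON5 and 2357, 2814, 3240, 3492 and 2373 FPKM in HG1 to HG5. All HG libraries were above all CON libraries (log2 fold change 0.71, standard error 0.125, limma, adjusted p = 0.000797). *Nppb*, which encodes the B-type peptide, was higher by a log2 fold change of 0.30 (limma, adjusted p = 0.0266), and missed the threshold under 8 of the 21 alternatives, with 0.132 under median-of-ratios factors and 0.0516 to 0.0656 without CON1, CON4, HG1, HG3 or HG4. *Myh6*, the fast alpha myosin heavy chain, measured 407, 454, 476, 375 and 447 FPKM in CON1 to CON5 and 201, 232, 190.4, 235 and 197 FPKM in HG1 to HG5. It was below the lowest CON library in every HG library (log2 fold change -1.03, limma, adjusted p = 1.97e-06). *Tnni3*, the adult troponin I, fell from 1261 ± 32.1 to 871 ± 90.8 FPKM and *Tnnc1*, the cardiac troponin C, from 2225 ± 57.4 to 1881 ± 72.1 FPKM (log2 fold changes -0.54 and -0.24, limma, adjusted p = 4.89e-05 and 0.000604). *Myh6*, *Tnni3* and *Tnnc1* are also among the 9 cardiomyocyte markers.

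Most known targets of MEF2 factors in muscle were lower in HG, while *Mef2a* and *Mef2c* were not called and *Mef2d* fell by 9.34%. Of 13, 0 were higher, 11 (84.6%) lower and 2 not called, where 11.8% of all genes were lower, or 17.5% with median-of-ratios factors and 15.9% when quantile normalization was used. The median log2 fold change was -0.38, and 11 were lower under either other scaling and with each library left out in turn. A fall was not particular to this list, since all 9 cardiomyocyte markers described further on were lower too, with a median of -0.45. Like the other lists, this one was drawn up with earlier results of these data known. *Mb*, which encodes myoglobin, measured 1392, 1037, 1195, 1161 and 1182 FPKM in CON1 to CON5 and 417, 314, 365, 378 and 420.4 FPKM in HG1 to HG5. Each HG library held less than the lowest CON library (log2 fold change -1.66, standard error 0.0870, limma, adjusted p = 2.41e-07). *Ckm*, the creatine kinase of muscle, fell from 1013 ± 65.6 to 518 ± 40.0 FPKM (log2 fold change -0.97, limma, adjusted p = 6.36e-07), and *Eno3*, the muscle enolase, from 53.6 ± 3.52 to 26.6 ± 2.63 FPKM (-1.01, limma, adjusted p = 1.20e-06). The other 2 targets, *Nr4a1* and *Jun*, which also respond to growth signals, had log2 fold changes of -0.22 and -0.10. RefSeq held promoters for 11 of the 13 targets, and 4 of these (36.4%) held a MEF2 box. This compares with 1.87% of the 11733 tested genes with a promoter and 3.66% of all 27457 genes with one. The list is one of known MEF2 targets, so that its share of MEF2 boxes is not independent of how it was chosen. The 4 genes are *Xirp1* and *Xirp2*, which encode proteins of the intercalated disc, *Hspb7*, a small heat shock protein of heart, and *Smpx*, a small protein of muscle. They are printed as 70 bases around the MEF2 box, which is in capitals, and their log2 fold changes were -0.17, -1.66, -0.37 and -0.38. None of the 4 boxes holds the TATA box letters TATAAA.
Xirp1 (GRCr8, chr8:128635054-128635123, strand -, box 82 bases before the start): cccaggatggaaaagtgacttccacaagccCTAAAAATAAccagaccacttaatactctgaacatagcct
Xirp2 (GRCr8, chr3:72534082-72534151, strand +, box 74 bases before the start): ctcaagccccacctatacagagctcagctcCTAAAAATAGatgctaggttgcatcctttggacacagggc
Hspb7 (GRCr8, chr5:159010633-159010702, strand +, box 96 bases before the start): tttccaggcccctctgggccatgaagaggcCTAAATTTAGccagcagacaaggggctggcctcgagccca
Smpx (GRCr8, chrX:41107199-41107268, strand -, box 101 bases before the start): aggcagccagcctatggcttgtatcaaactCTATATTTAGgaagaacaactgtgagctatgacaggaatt

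Contractile and cytoskeletal targets of SRF moved in both directions. Of 16, 5 were higher, 5 lower and 6 not called, beside 28.4% higher and 11.8% lower over all genes, and the list had a median log2 change of 0.02. Among those that rose were *Cnn1*, a calponin (82.0 ± 5.14 to 155.6 ± 27.2 FPKM, log2 fold change 0.91, limma, adjusted p = 2.37e-05), *Acta2*, an actin of smooth muscle (538 ± 42.6 to 673 ± 65.4 FPKM, 0.32, adjusted p = 0.00341) and *Tagln*, the gene of transgelin (100.1 ± 18.0 to 138 ± 20.4 FPKM, 0.47, adjusted p = 0.00784). Among those that fell were *Actg2*, likewise an actin of smooth muscle (13.4 ± 1.97 to 7.07 ± 2.03 FPKM, -0.94, limma, adjusted p = 0.00100), *Tpm1*, a tropomyosin (1155 ± 31.1 to 1016 ± 41.7 FPKM, -0.18, adjusted p = 0.00277), and *Dmd*, the dystrophin gene (9.53 ± 0.757 to 7.63 ± 0.585 FPKM, -0.32, adjusted p = 0.00308). Without CON3 or without HG1, 3 were higher, and with median-of-ratios factors 3 were higher and 6 lower, with a median of -0.07. Of the 10 immediate early targets of SRF, *Ier2* was higher (log2 fold change 0.26, limma, adjusted p = 0.00709, and 0.0733 with median-of-ratios factors) and 9 were not called.

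**Figure D4:**
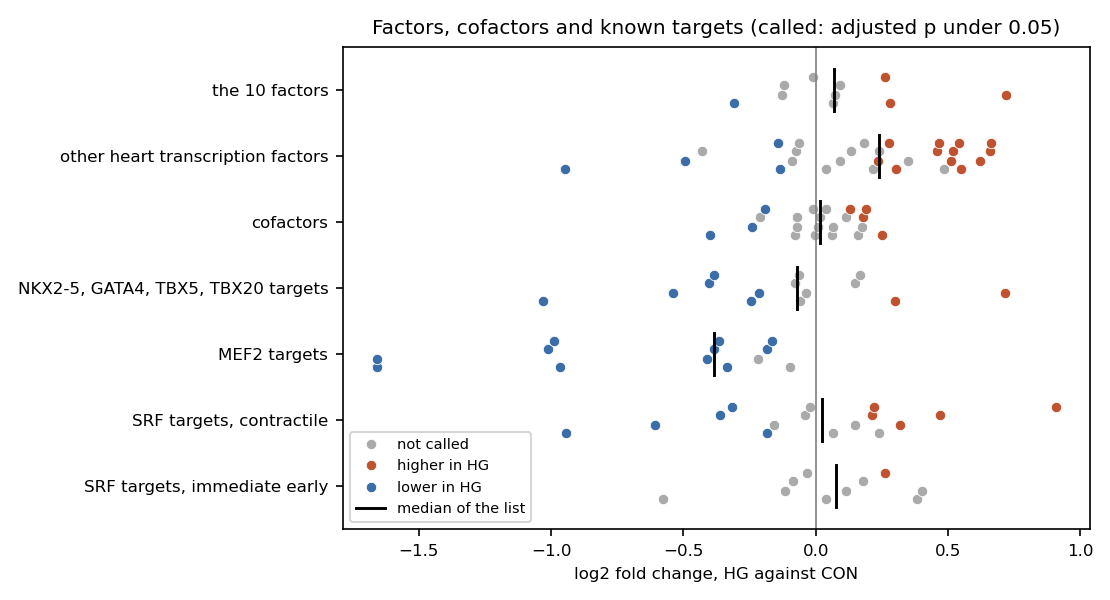
Log2 fold change, HG against CON (x axis), of the 10 factors and of the lists of other heart transcription factors, cofactors and known targets (rows). Points are genes, orange where higher and blue where lower at an adjusted p under 0.05 (limma) and grey where not called, and the black bar is the median of a list, which is -0.38 for MEF2 targets and 0.24 for other heart transcription factors.

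Markers of cell types moved with the groups as well. In whole hearts, fewer cells of a type and less RNA per cell cannot be told apart. All 9 cardiomyocyte markers were lower, with a log2 difference of -0.34 in their sum (2-sided exact permutation test, n = 5 libraries each, p = 0.00794). The sum of 8 ventricular markers was also lower (13084 to 13825 FPKM in CON, 10090 to 11653 FPKM in HG, exact permutation p = 0.00794), with 2 genes higher and 3 lower. *Myh7* counts in both the ventricular and the cardiomyocyte sum, so that the 2 results are not separate. With median-of-ratios factors 1 ventricular marker was higher and 5 lower, and after quantile normalization 1 was higher and 1 lower. The sum of 11 atrial markers, in which *Nppa* counts, was higher (2884 to 4216 and 3868 to 5395 FPKM, exact permutation p = 0.0238). Endocardial markers, 4 genes led by *Npr3* and *Hapln1*, summed to 24.3 to 29.1 FPKM in CON and 30.2 to 42.7 FPKM in HG (exact permutation p = 0.00794). Of the 4, 3 were higher and 1, *Cytl1*, was lower (2.90 ± 0.693 to 1.19 ± 0.516 FPKM, log2 fold change -1.28, limma, adjusted p = 0.00168). The 9 epicardial markers, which include *Tbx18*, summed to 35.0 to 42.0 and 42.3 to 49.1 FPKM (exact permutation p = 0.00794), and 2 of them were higher, 1 lower and 6 not called. The 8 markers of smooth muscle and pericytes, which include *Acta2* and *Tagln*, summed to 845 to 952 FPKM in CON and 993 to 1229 FPKM in HG (exact permutation p = 0.00794), and 2 of them were higher and 2 lower. No marker of these 6 lists was at 0 in all libraries. The sum of 7 red cell precursor markers was lower in HG (60.9 to 111.1 and 41.2 to 59.0 FPKM, exact permutation p = 0.00794), and so was that of the liver markers (exact permutation p = 0.00794). All these sums are of FPKM as deposited, with which the median log2 fold change of all genes was 0.09. They were not compared under other scalings, and the gap between the groups was narrow for epicardial markers (42.0 and 42.3 FPKM). The part of cell composition in the differences of the factors was not tested.

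**Figure D5:**
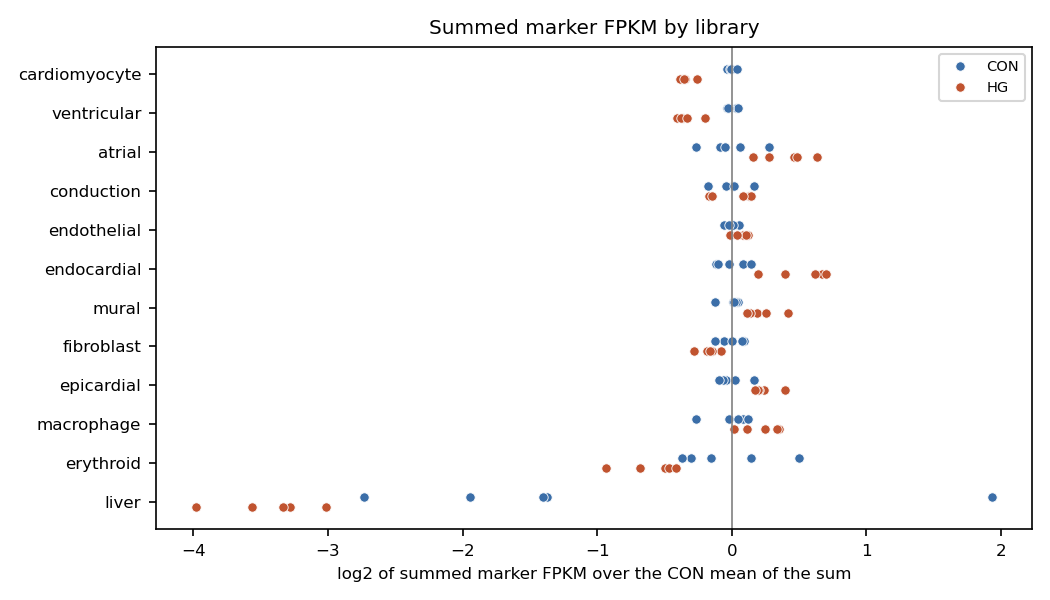
Log2 of the summed FPKM of each marker list over the CON mean of that sum (x axis), by library (points) for CON and HG and for 12 cell types or tissues (rows). The HG points of cardiomyocyte and ventricular markers lie left of all CON points, those of endocardial, mural and epicardial markers lie right of them, and CON3 is the single liver point near 2.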

How the data were processed

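RNA of 10 fetal rat hearts or heart pools (5 CON, 5 HG) was made into stranded mRNA libraries. The values the authors deposited are FPKM, read numbers relative to gene length and library size, in 1 column per library. The submitters' processing notes name fastp, HISAT2, HTSeq, R 3.2.0 and the build mRatBN7.2. The study's text speaks of pooled RNA of the 10 samples in its methods and of isolated cardiomyocytes in a legend, whereas the labels give heart tissue and the columns differ from library to library.

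FPKM were read with Python 3.11.15 and pandas 2.3.3. Values of genes whose mean reached 0.1 FPKM went into limma 3.58.1 in R 4.3.3 on the scale log2(FPKM + 0.1) (trend on expression, no covariate), with Benjamini-Hochberg adjustment over all genes tested. Fold changes on this scale understate those of low genes. DESeq, the study's tool, needs counts and was not used. Each value was a whole multiple of what 1 read is worth, within 0.01 reads, in 99.92% of genes and for 100% of their values, and these recovered reads were used for voom, which called 5941 of 14528 genes against 5836 of 14542 with limma. The 14 genes without recovered reads include very abundant ones such as *Actc1*, so totals are lower than the true depth. Ratios and marker sums were compared with 2-sided exact permutation tests, and the model was tested on simulated data.

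The members and gene lists were chosen with earlier results of these data known. Named genes were the 10 factors, up to 3 higher and 3 lower genes with the smallest adjusted p in each list (mean of at least 1 FPKM), marker genes, and the 2 genes most like each called factor. Genes outside this rule that are named (*Myocd*, *Nr4a1*, *Jun*, *Tbx1* and the 4 genes with a MEF2 box) were chosen after their values were seen. The alternatives were other pseudocounts (1 and 0.01), no filter, a filter at 1 FPKM, quantile normalization, median-of-ratios factors, removal of hemoglobin genes, a fit without the trend, a block for the replicate number, a covariate from Y chromosome genes, voom, and each library left out in turn. Promoter sequences are from RefSeq (GRCr8).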

Additional observations from a re-analysis of the deposited data

Results flagged for a closer look

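In 32 groups of 5 values (the 10 factors and the 6 ratios, in CON and in HG), 2 held a library far from the rest, where chance flags about 1 in 20 groups. *Gata4* was 90.5 FPKM in CON1 and 83.1 to 84.7 FPKM in the other CON libraries, a gap of 0.777 of the group's range. CON1 was still below the lowest HG library, 98.5 FPKM. The ratio of *Tbx5* to *Tbx20* was 0.0671 in CON3 and 0.0534 to 0.0557 in the other CON libraries, a gap of 0.837 of the range, and CON3 is also the library with the high liver marker sum.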

How the results depend on the processing

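With 21 alternatives, *Hand1*, *Gata4* and *Gata6* kept their direction and stayed past the threshold in all. *Tbx5* kept its direction and missed the threshold in 8, and *Hand2* passed it in 1. Direction reversed, without passing the threshold, for *Mef2a* (from -0.034 to 0.0048 on the log2 scale with a library left out, and above 0 without CON2, CON3 or HG1), *Mef2c* (-0.024 with median-of-ratios factors, -0.0083 after quantile normalization) and *Srf* (-0.017 with median-of-ratios factors). The cause was not tested.

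Counts of called genes moved by more than 1.5 times as follows. With median-of-ratios factors the 10 factors held 2 lower genes (1 with FPKM as deposited), the cofactors 1 higher and 5 lower (4 and 3), the targets of NKX2-5, GATA4, TBX5 or TBX20 1 higher (2), the contractile SRF targets 3 higher (5) and the immediate early SRF targets 0 higher (1). Quantile normalization gave 5 lower cofactors. Without the trend, 1 higher target of NKX2-5, GATA4, TBX5 or TBX20 and 3 higher contractile SRF targets were called. Voom on recovered reads gave 3 lower contractile SRF targets (5), of which *Actc1* had no recovered reads. With each library left out in turn, lower genes among the other heart transcription factors ranged from 1 to 4, higher targets of NKX2-5, GATA4, TBX5 or TBX20 from 1 to 2, higher contractile SRF targets from 3 to 5 and lower immediate early SRF targets from 0 to 1. The log2 difference of the ratio of *Tbx5* to *Tbx20* ranged from 0.14 to 0.28 with a library left out, and was past the threshold without HG1. All other counts of the 10 factors and of the lists of factors, cofactors and targets stayed within 1.5 times. Counts of the marker lists were not compared under every alternative, and some moved. Ventricular markers held 1 higher and 5 lower with median-of-ratios factors and 1 higher and 1 lower after quantile normalization (2 and 3). Endothelial markers held 1 higher and 1 lower with median-of-ratios factors (2 and 0). All other ratios stayed on their side of the threshold. For the 3 ratios whose groups did not overlap this follows from the separation, since a test without 1 library must then give its smallest p. Medians moved too, for the 10 factors from 0.07 to -0.02 with median-of-ratios factors, for the cofactors from 0.02 to -0.07 with such factors and -0.06 after quantile normalization, for the other heart transcription factors from 0.24 to 0.15 with median-of-ratios factors, 0.17 after quantile normalization and 0.16 with a pseudocount of 1, for the targets of NKX2-5, GATA4, TBX5 or TBX20 from -0.07 to -0.16 with median-of-ratios factors, and for the contractile SRF targets from 0.02 to -0.07 with such factors and 0.15 with voom.

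Deviations of libraries with the same replicate number correlated between -0.126 and 0.108, and no library correlated best with its own number. A pairing by number was thus not seen over all genes. It is not excluded, since the sources do not say what the numbers mark. A fit with the replicate number as a block called 5096 genes in all against 5836, still 3 higher and 1 lower among the 10 factors, 2 lower other heart transcription factors (4 without the block) and 1 higher target of NKX2-5, GATA4, TBX5 or TBX20 (2). Depth limits *Hand1* and *Tbx5* most. The 95% confidence intervals of the 6 factors not called lay between -0.28 and 0.23 on the log2 scale, so that differences within these bounds could have been missed.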

Other observations

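Marker sums of cell types not described above were also compared, likewise with FPKM as deposited only. Of 9 fibroblast markers 5 were lower and 2 higher, and their sum was 1742 to 2029 FPKM in CON and 1565 to 1797 FPKM in HG (2-sided exact permutation test, n = 5 libraries each, p = 0.0159). Of 8 endothelial markers 2 were higher and 0 lower (sums of 273 to 295 and 281 to 308 FPKM, exact permutation p = 0.0635). Macrophage markers summed to 38.6 to 50.4 FPKM in CON and 46.8 to 59.1 FPKM in HG (exact permutation p = 0.0635), and 3 of 8 were higher and 1 lower. Markers of the conduction system, which include *Hcn4* and *Tbx3*, summed to 12.4 to 15.7 and 12.4 to 15.5 FPKM (exact permutation p = 0.897). Hemoglobin genes summed to 10680 to 20118 FPKM in CON and 8444 to 11767 FPKM in HG (exact permutation p = 0.0238). Markers of autonomic neurons and glia (exact permutation p = 0.0873) and of the thymus (p = 0.913) summed to at most 6.44 and 2.82 FPKM in a library.

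The atrial sum rose through few genes. *Nppa* and *Bmp10*, a peptide of trabeculae and atria that went from 15.8 ± 4.01 to 30.6 ± 3.06 FPKM (SD, n = 5 each, log2 fold change 0.98, limma, adjusted p = 0.000298), were higher together with *Nr2f2*, while the atrial myosin light chains *Myl7* (789 and 759 FPKM) and *Myl4* (833 and 873 FPKM) were not called. Of the ventricular markers, *Myl2*, *Myl3* and *Myh7* were lower and *Hey2* and *Mpped2* higher.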
